A study of Mus musculus with 12 samples.

Results

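The TGF-beta ligand, its receptors and its SMADs were followed in macrophages sorted from the mammary ducts of mice. The 9 genes were chosen by symbol: the ligand Tgfb1, the receptors Tgfbr1 and Tgfbr2, the signal carriers Smad2, Smad3 and Smad4, the inhibitors Smad7 and Ski, and the induced matrix gene Tgfbi. All 9 were found among the 27179 genes of the count table, and all 9 were among the 12672 genes with enough counts to be tested. RNA sequencing covered 4 groups of C57BL/6 females with 3 libraries each: virgin, day 16.5 of pregnancy, lactating, and 1 month after weaning. The sources used here do not give the day of lactation, the ages of the mice or the markers used for the sort. Libraries were made from 2000 sorted cells each with a full-length cDNA kit for small inputs. The replicates are described as biological. Whether each came from 1 mouse or from several is not given.

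TGF-beta is secreted in a latent form and, once released, binds the type II receptor TGFBR2, which recruits and phosphorylates the type I receptor TGFBR1. The activated type I receptor phosphorylates SMAD2 and SMAD3, which join SMAD4, enter the nucleus and bind DNA with other factors. SMAD7 blocks the type I receptor, and SKI holds SMAD complexes in a repressed state. In the mammary gland, TGF-beta is known as an inhibitor of ductal growth, and macrophages are among the cells that make it. Much of this control acts on the protein, through release of the ligand and phosphorylation, and RNA counts do not measure it.

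The stretch upstream of Tgfbi is shown because Tgfbi was the 1 gene of the 9 to pass the test between stages, and that of Tgfbr1 because it came closest among the others. Both were taken from RefSeq on GRCm38.p6, on the plus strand, from 250 to 64 bases before the annotated start, and are written 5′ to 3′. The search covered CAGAC, the short element that SMADs are known to bind, on both strands, so that GTCTG in the printed strand is a match. It is in capitals. The region of Tgfbi is chr13:56609336-56609522 and that of Tgfbr1 is chr4:47352972-47353158.
Tgfbi: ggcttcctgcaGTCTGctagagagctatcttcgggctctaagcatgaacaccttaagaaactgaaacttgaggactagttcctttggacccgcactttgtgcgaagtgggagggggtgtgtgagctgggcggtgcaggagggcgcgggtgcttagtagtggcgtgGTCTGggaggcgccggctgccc
Tgfbr1: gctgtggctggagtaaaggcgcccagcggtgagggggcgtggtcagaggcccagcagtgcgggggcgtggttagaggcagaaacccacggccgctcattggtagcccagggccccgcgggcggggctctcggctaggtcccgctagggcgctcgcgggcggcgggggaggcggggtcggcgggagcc
The Tgfbi stretch held 2 matches, 239 and 85 bases before the start, and the Tgfbr1 stretch held none. At least 1 CAGAC was present in 34.2% of 32841 RefSeq windows of the same 187 bases, so a match is common. Of the 6 genes with a window in the table, Tgfbr2 held 1 match, and Tgfb1, Smad3 and Ski held none. The palindrome GTCTAGAC, the AP-1 element TGANTCA and the PU.1 core GAGGAA, each searched on both strands, were in none of the 6 and in 0.143%, 5.14% and 17.8% of all windows. GC content was 59.4% for Tgfbi and 75.4% for Tgfbr1, against a median of 51.3% over all windows. These matches describe letters in a window and say nothing of binding.

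The libraries held 6926273 to 21204704 counts in genes, with pregnant replicate 3 the deepest. Lactating replicate 3 stood apart. Macrophage markers made up 6.65% of it, compared with 18.3% in lactating replicate 1 and 17.1% in replicate 2, and 15 milk and secretory genes made up 7.49%, compared with 0.204% and 0.203%. It had the fewest genes detected, 10178. Its mean correlation with the other libraries of its stage was 0.713, against 0.778 to 0.917 for all other libraries. Lactating replicates 1 and 2 had 11462 and 11412 genes detected and the lowest totals, 7304269 and 6926273 counts. Pregnant libraries had 13409, 13329 and 13790 genes detected, virgin libraries 12421, 11295 and 13207, and post-weaning libraries 13476, 12984 and 13015. The part of gene detection in levels at or near 0 counts in lactation was not tested. All 22 macrophage markers had counts at every stage, among them Csf1r, Adgre1 and Cd68. Levels of the lactating stage are therefore given for each library, in the order of replicates 1 to 3. Since RNA was measured in bulk, fewer cells of a type and less RNA per cell cannot be told apart.

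Levels were expressed as CPM (counts of a gene scaled to a common library size), and as CPM per kilobase of gene (RPKM) where genes are compared with each other. Tgfbi had the highest mean per length, 322 ± 127 RPKM (SD, n = 12 libraries), above 98.4% of the genes tested. Tgfbr1 averaged 131 ± 43.6 RPKM, above 95.6% of genes. Tgfb1 (46.2 ± 13.4 RPKM) and Tgfbr2 (34.6 ± 10.5 RPKM) came next, above 87.8% and 84.3% of genes. Smad4 averaged 26.8 ± 13.1 RPKM and Ski 19.3 ± 3.70 RPKM. Smad2, Smad7 and Smad3 were the lowest per length, at 7.23 ± 6.55, 3.64 ± 1.51 and 2.09 ± 0.793 RPKM, and Smad3 exceeded 29.4% of genes. Tgfbi was measured from 4748 to 39223 counts in each library, whereas Smad7 rested on 18 to 489 counts and Smad3 on 35 to 430. Across the 12 libraries the ranges of neighbours in this order overlapped, for example Tgfbi at 195 to 607 RPKM and Tgfbr1 at 48.6 to 215 RPKM. Within every library, however, Tgfbi was above Tgfbr1, and Tgfbr1 was above Tgfb1. Each other pair of neighbours was in the reverse order in some library.

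**Figure D1:**
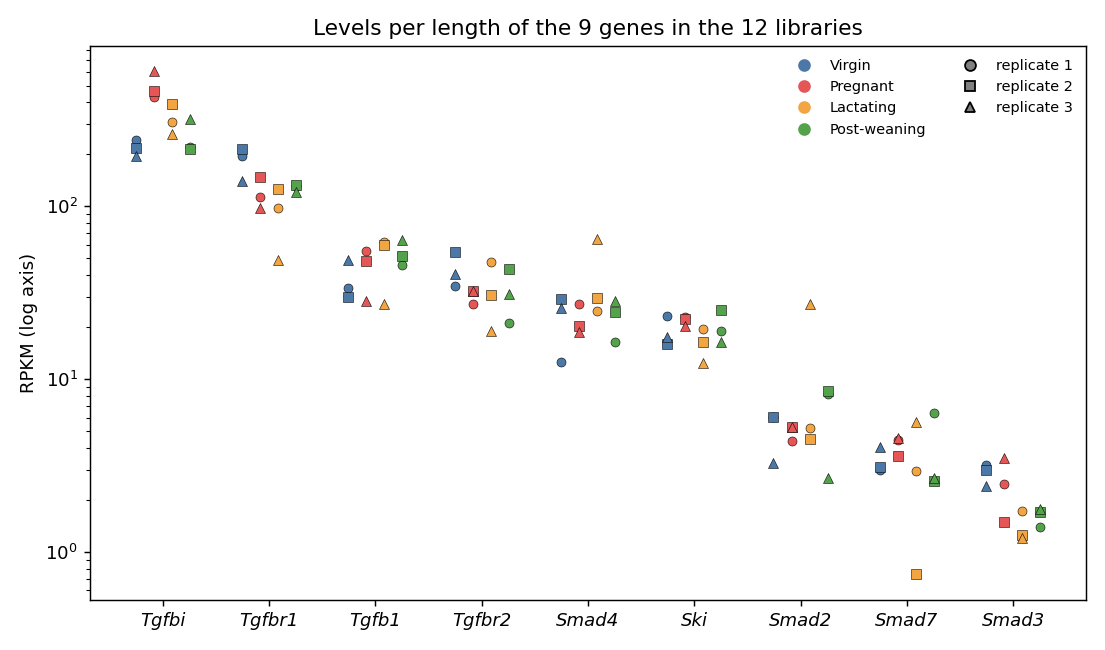
Level per length of the 9 genes, ordered by their mean, with 1 point for each of the 12 libraries (y axis, RPKM on a log scale; colour marks the stage and shape the replicate). Tgfbi and Tgfbr1 lie at the top and Smad7 and Smad3 at the bottom, and the ranges of neighbouring genes overlap.

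Tgfbi encodes a secreted matrix protein that binds integrins and is named for its induction by TGF-beta. The gene (Entrez 21810) lies on chromosome 13 at 56609586 to 56639359 of GRCm38. It had 1150.4, 1242 and 1624 CPM in the pregnant libraries, against 647, 579.5 and 523 CPM in the virgin libraries. All 3 pregnant libraries were above all other 9 libraries. Means were 1339 ± 251 CPM in pregnancy and 583 ± 62.1 CPM in virgins (SD, n = 3 each). Tgfbi rose 2.30-fold in pregnancy (95% interval 1.61 to 3.28), a log2 fold change of 1.20 ± 0.23 (SE), with an edgeR adjusted p of 0.0318 over all 12672 genes.

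The call was close to the threshold. It was lost when any virgin or any pregnant library, or post-weaning replicate 1 or 2, was left out, with edgeR adjusted p between 0.0571 and 0.139, while the log2 fold change stayed between 1.04 and 1.31. It was kept without each lactating library or post-weaning replicate 3, and without lactating replicate 3 the adjusted p was 0.00679.

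In lactation Tgfbi had 823, 1052 and 699.8 CPM, which lay above every virgin library and below every pregnant one. The difference did not pass the test against either stage (log2 fold change 0.56 and edgeR adjusted p = 0.256 against virgin; -0.64 and adjusted p = 0.164 against pregnancy). After weaning it had 589, 575 and 858 CPM, which overlapped the virgin range. Post-weaning against pregnancy gave -0.99 on the log2 scale (95% interval -1.5 to -0.48) with an edgeR adjusted p of 0.0982, so this lower level was not called. DESeq2 called it, with an adjusted p of 0.00217, as did limma-voom at 0.00449. In edgeR the adjusted p was 0.0286 without lactating replicate 3. The differences of post-weaning from virgin (0.21, adjusted p = 1) and from lactating libraries (-0.35, adjusted p = 0.522) were smaller still. In the test of any difference between the 4 stages, Tgfbi had an edgeR adjusted p of 0.0405, which was lost in 10 of 12 fits without 1 library and kept without lactating replicate 3 (0.0129) or post-weaning replicate 3 (0.0403).

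**Figure D2:**
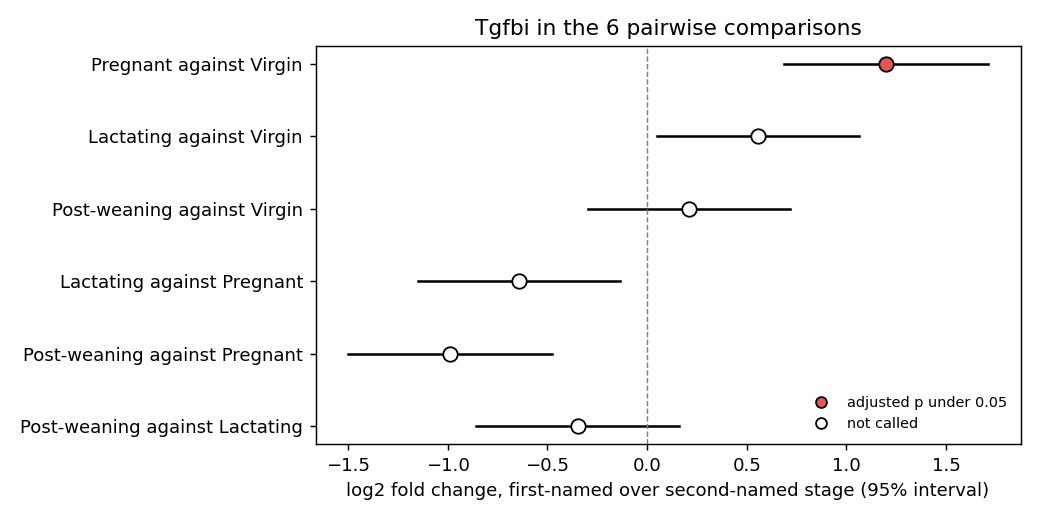
Log2 fold change of Tgfbi in each of the 6 pairwise comparisons (x axis; the first-named stage over the second), with 95% intervals as lines. The filled point, pregnant against virgin at 1.20, is the 1 comparison with an adjusted p under 0.05, and post-weaning against pregnant lies at -0.99.

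Other cell types were followed beside Tgfbi with marker lists. Fibroblasts also express Tgfbi, and the 13 fibroblast markers summed to 21.0 to 31.1 CPM in pregnant libraries, against 33.1 to 407 CPM in virgin libraries. In pregnancy 6 of the 13 were at 0 (Pdgfra, Fbln1, Mfap5, Pi16, Col6a3 and Thy1). The 11 endothelial markers summed to 3.31 to 13.2 CPM in pregnant and 18.2 to 94.5 CPM in virgin libraries, with Emcn, Tek and Flt1 at 0 in pregnancy. Macrophage markers summed to 112291 to 141496 CPM in pregnant and 123969 to 130580 CPM in virgin libraries. Milk and secretory genes were higher without overlap, at 2629 to 14577 CPM in pregnant and 687 to 1006 CPM in virgin libraries. In virgin libraries 8 of the 15 were at 0 (Csn1s1, Csn1s2a, Csn1s2b, Wap, Glycam1, Btn1a1, Lao1 and Olah). In replicate order, they summed to 14577, 2629 and 3048 CPM in pregnant libraries, where Tgfbi had 1150.4, 1242 and 1624 CPM. Lactating libraries had 2588, 2566 and 68699 CPM of these genes and 823, 1052 and 699.8 CPM of Tgfbi. Post-weaning libraries had 2643, 1974 and 1683 CPM of these genes and 589, 575 and 858 CPM of Tgfbi. The 12 T and NK cell markers were also higher without overlap, at 63.6 to 107 CPM in pregnant and 27.3 to 60.1 CPM in virgin libraries, with Cd3e, Cd3g, Ncr1 and Gzma at 0 in pregnancy. The 10 dendritic cell markers summed to 300.2 to 455 CPM in pregnant and 186 to 319 CPM in virgin libraries, with Zbtb46, Cd209a and Kmo at 0 in pregnancy. B cell markers were lower without overlap (165 to 235 CPM in pregnant and 252 to 435 CPM in virgin libraries), and the luminal and basal, adipocyte, and neutrophil and mast cell lists overlapped. The part of these cell types in the Tgfbi result was not tested.

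Tgfb1, the ligand most studied in immune cells, lies on chromosome 7 at 25687002 to 25705077 (Entrez 21803). It had 70.7, 62.4 and 103 CPM in virgin and 115, 101 and 59.5 CPM in pregnant libraries. Lactating libraries had 130.3, 125 and 57.1 CPM and post-weaning libraries 95.4, 109 and 134 CPM. Stage means were ordered virgin (78.6 ± 21.2), pregnant (91.8 ± 28.8), lactating (104 ± 40.8) and post-weaning (113 ± 19.9 CPM), and every pair of stages overlapped. The lowest of all libraries was lactating replicate 3. Without it, the lactating mean was 128 CPM. Tgfb1 passed no comparison (lowest edgeR adjusted p = 0.626; any stage, 0.810).

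The type I receptor Tgfbr1 (Entrez 21812; chromosome 4, 47353222 to 47414926) had 1102, 1219 and 796 CPM in virgin and 642, 835 and 556 CPM in pregnant libraries. It had 553, 709.6 and 276 CPM in lactating and 747, 755 and 685 CPM in post-weaning libraries. Every virgin library was above every lactating and every post-weaning library, and the virgin and pregnant ranges overlapped. Lactating against virgin had the lowest p of the 8 genes other than Tgfbi, 0.00694 unadjusted, and did not pass after adjustment (edgeR adjusted p = 0.129). DESeq2 called it, with an adjusted p of 0.00973. Without lactating replicate 3 the lactating mean was 631 CPM, against 513 ± 219.7 CPM with it.

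The type II receptor Tgfbr2, which binds the ligand (Entrez 21813; chromosome 9, 116087695 to 116175363), had 165, 262 and 195 CPM in virgin and 131, 155 and 155 CPM in pregnant libraries. It had 227, 147 and 90.7 CPM in lactating and 101, 209 and 149 CPM in post-weaning libraries. The pregnant libraries were all below the virgin ones, while every other pair of stages overlapped. No comparison passed (lowest edgeR adjusted p = 0.593). Per length, Tgfbr1 exceeded Tgfbr2 in all 12 libraries, by 2.06 to 6.26 times, with a median of 3.93 for virgin, 4.14 for pregnant, 2.57 for lactating and 3.90 for post-weaning libraries.

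Smad2 and Smad3 are the receptor-regulated SMADs, which the type I receptor phosphorylates. Smad2 (Entrez 17126; chromosome 18, 76241090 to 76311748) had 55.0, 55.4 and 30.0 CPM in virgin and 40.1, 48.4 and 48.0 CPM in pregnant libraries. Lactating libraries had 47.6, 40.9 and 249 CPM and post-weaning libraries 75.2, 78.2 and 24.4 CPM. Lactating replicate 3 was 3.19 times the next highest library, and without it the lactating mean was 44.3 CPM. No pair of stages was separated (lowest edgeR adjusted p = 0.305). The high Smad2 value thus belongs to the library that also held the most milk RNA, whose part in it was not tested.

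Smad3 (Entrez 17127; chromosome 9, 63646766 to 63757994) had 16.3, 15.1 and 12.2 CPM in virgin and 12.6, 7.57 and 17.8 CPM in pregnant libraries. Lactating libraries had 8.84, 6.40 and 6.14 CPM and post-weaning libraries 7.14, 8.67 and 9.07 CPM. All virgin libraries lay above all lactating and all post-weaning ones, and the pregnant libraries overlapped every other stage. The differences did not pass the test (lowest edgeR adjusted p = 0.386, lactating against virgin). Per length, Smad2 exceeded Smad3 in all 12 libraries, by 1.37 to 22.6 times, the highest ratio being that of lactating replicate 3. In the other 11 libraries the ratio did not exceed 5.86.

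Smad4, the shared partner of the TGF-beta and BMP SMADs (Entrez 17128; chromosome 18, 73634790 to 73703791), had 42.0, 96.9 and 86.7 CPM in virgin and 90.6, 68.1 and 62.3 CPM in pregnant libraries. Lactating libraries had 83.3, 98.9 and 216 CPM and post-weaning libraries 54.9, 81.5 and 94.8 CPM. The stages overlapped in every pair, and lactating replicate 3 was again the highest, 2.19 times the next. Without it the lactating mean was 91.1 CPM, against 133 ± 72.6 CPM with it. No comparison passed (lowest edgeR adjusted p = 0.289). Smad4 exceeded Smad2 per length by 2 to 10.6 times.

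The inhibitory Smad7, itself a known target of TGF-beta (Entrez 17131; chromosome 18, 75367365 to 75395935), had 13.2, 13.7 and 17.9 CPM in virgin and 19.7, 15.9 and 20.2 CPM in pregnant libraries. Lactating libraries had 13, 3.29 and 25.1 CPM and post-weaning libraries 28.5, 11.4 and 11.8 CPM. The spread within the lactating stage, with an SD of 79.2% of the mean, covered every virgin and pregnant library. The lowest value, in lactating replicate 2, rested on 18 counts. Smad7 had the highest p of the 9 genes for any stage (edgeR adjusted p = 0.980), which at this depth and spread does not show that its level was the same.

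Ski, a repressor that binds SMAD3 and SMAD4 (Entrez 20481; chromosome 4, 155154075 to 155222535), varied least. It had 127, 87.0 and 96.3 CPM in virgin and 124, 121 and 110.4 CPM in pregnant libraries. Lactating libraries had 107, 90.3 and 67.7 CPM and post-weaning libraries 103, 138 and 89.9 CPM. The lactating libraries were all below the pregnant ones, and other pairs overlapped. The highest library was 2.04 times the lowest, and no comparison passed (lowest edgeR adjusted p = 0.382).

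**Figure D3:**
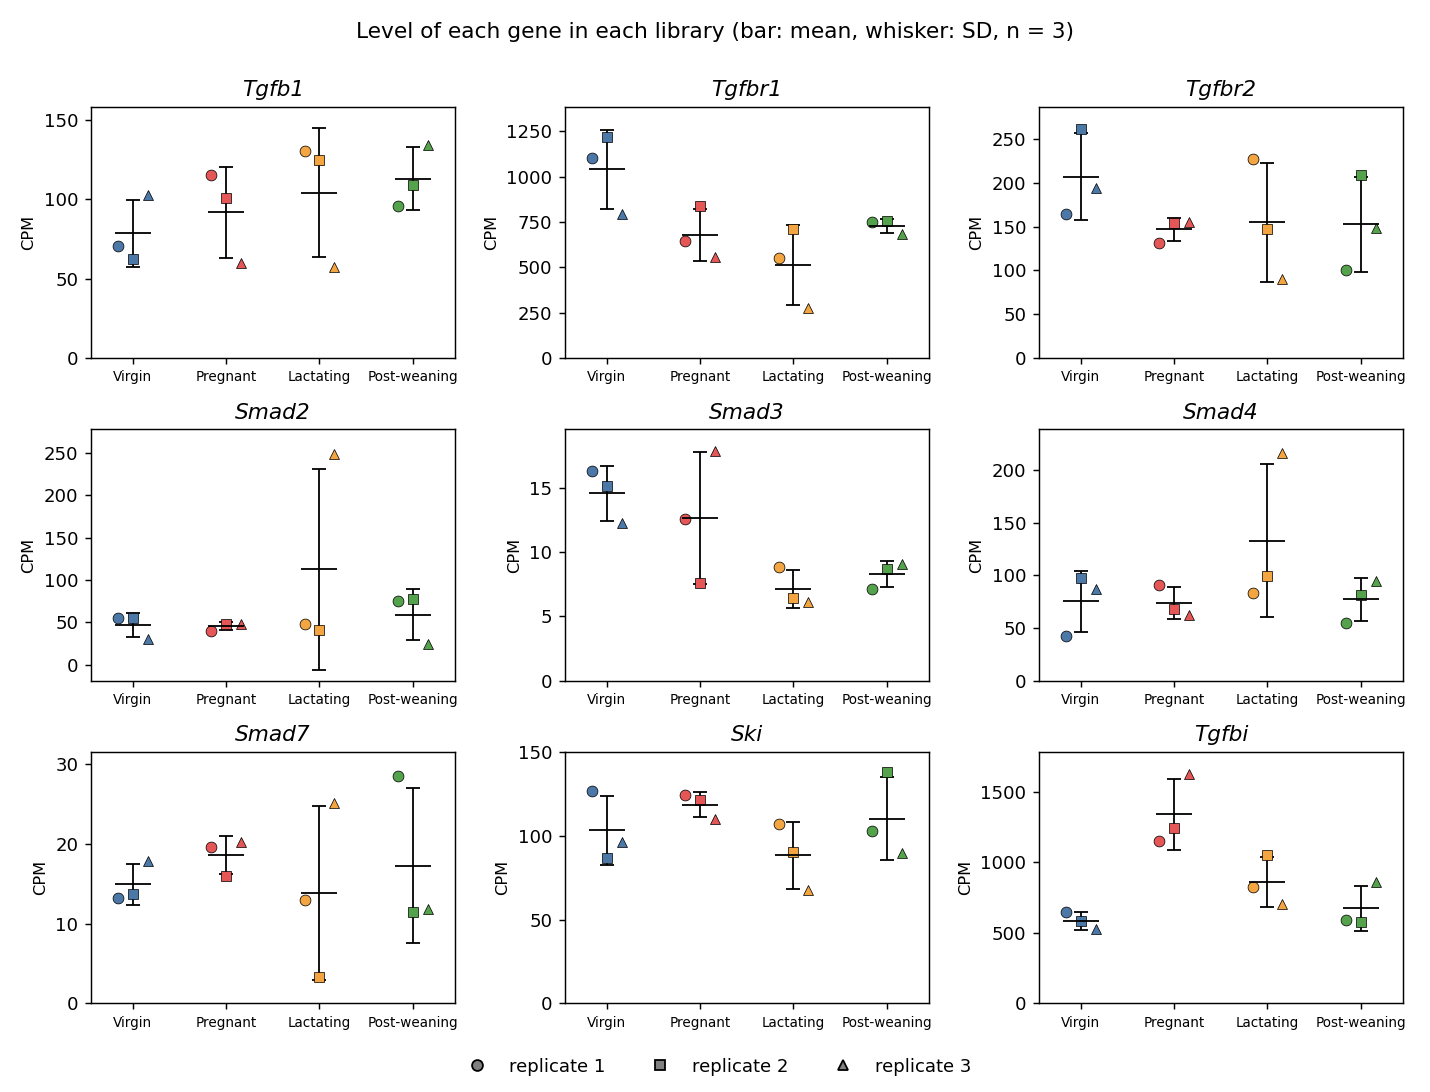
Level of each of the 9 genes in each library (y axis, CPM), by stage along the x axis; points are libraries, bars are means and whiskers are SD (n = 3). For Tgfbi the pregnant libraries lie at 1150.4 to 1624 CPM above all others, and for Smad2 and Smad4 lactating replicate 3 lies far above the rest, at 249 and 216 CPM.

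Of the 9 genes, 1 was called in pregnancy against virgin, where 1.32% of all genes tested were called and 0.442% were called higher. It was also the 1 gene of the 9 with an unadjusted p under 0.05, against 12.2% of all genes. None was called in lactation against virgin, where 1.94% of all genes were called. At an unadjusted p under 0.05 there were 2 of 9, against 16.8% of all genes. DESeq2 called 1 of 9, against 9.26% of all genes. None was called after weaning against virgin, where edgeR called 0% of all genes. There 0 of 9 had an unadjusted p under 0.05, against 6.04% of all genes, and neither DESeq2 nor limma-voom called any of the 9. None was called in lactation against pregnancy (3.85% of all genes), with 1 at an unadjusted p under 0.05 (18.6% of all genes). DESeq2 called 1 there, and 11.6% of all genes. None was called after weaning against pregnancy (0.718%), with 1 at an unadjusted p under 0.05 (10.2%) and 1 called by DESeq2. None was called after weaning against lactation (0.923%), with 0 at an unadjusted p under 0.05 (15.1%) and 0 called by DESeq2. With all 4 stages tested together, 1 of 9 was called, against 3.35% of all genes, and 2 had an unadjusted p under 0.05, against 16.7%.

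The genes whose stages did not overlap numbered 2 of 9 for pregnant against virgin libraries (24.2% of all genes), 3 of 9 for lactating against virgin (17.3%) and 2 of 9 for post-weaning against virgin (15.4%). It was 2 of 9 for lactating against pregnant (26.6%), 1 of 9 for post-weaning against pregnant (27.3%) and 0 of 9 for post-weaning against lactating (21.6%). The median log2 difference of the 9 genes was -0.03 in pregnancy against virgin, -0.11 in lactation against virgin and 0.10 after weaning against virgin, beside 0.03, -0.06 and 0.02 over all genes. Lactation against pregnancy gave -0.40, beside -0.14 over all genes. Post-weaning gave 0.06 against pregnancy and 0.12 against lactation, beside 0.01 and 0.08.

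**Figure D4:**
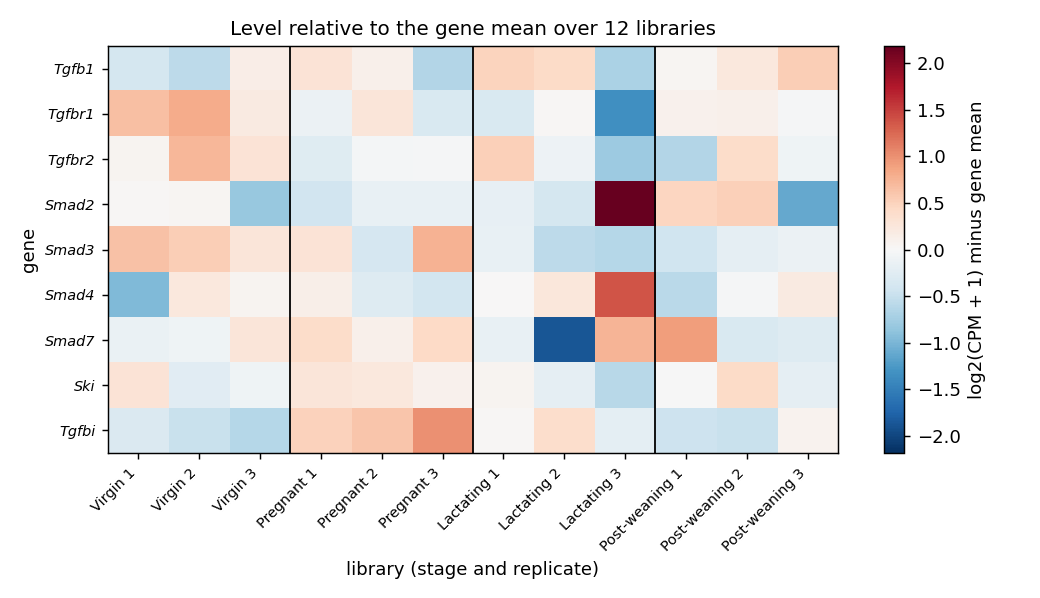
Level of the 9 genes (rows) in the 12 libraries (columns, by stage), as log2(CPM + 1) minus the gene's mean over the libraries; red is above and blue below that mean. Tgfbi is above its mean in the 3 pregnant libraries, and lactating replicate 3 is high for Smad2 and Smad4 and low for Tgfbr1, Tgfbr2 and Tgfb1.

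The genes whose pattern across the 12 libraries came closest to each of the 9 were found by the root mean square difference of centred log2 CPM among 6994 expressed genes. For Tgfbi they were Acsl5, Gsto1 and Uqcr10, at 0.21, 0.22 and 0.23, where the median gene was at 0.79. A gene of unchanging level would lie near the SD of the gene itself, which was 0.50 for Tgfbi. Among the 9 genes this SD was lowest for Ski (0.28) and highest for Smad2 (0.81). For Tgfb1 they were Ormdl2, Tmem104 and H2-D1 (0.21 to 0.22), for Tgfbr1 Diablo, Qk and Hprt (0.23 to 0.24), and for Tgfbr2 Ghitm, Lin7c and Mylip (0.24 to 0.25). Smad2 was closest to Ap2b1, Srrt and Tmem222 (0.37 to 0.40), Smad3 to Ehmt2, Vti1b and Tpcn1 (0.30 to 0.31), and Smad4 to Ruvbl2, Mical1 and Ubxn2a (0.26 to 0.27). Smad7 was closest to Arl4a, Emc9 and Polr2m (0.30 to 0.39), and Ski to Mtpn, Ube2k and H3f3a (0.13 to 0.15). None of the other 8 genes was among the candidates for any of them, since the 9 were left out.

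A further 159 genes of the pathway, in 7 lists, were read from the same fit, and 147 of them were tested. In pregnancy against virgin 12 were called (8.16%, beside 1.32% of all genes), 2 higher and 10 lower. In lactation against virgin 8 were called (5.44%, beside 1.94%), 2 higher and 6 lower, and none was after weaning against virgin, where edgeR called no gene at all, 765 genes had an unadjusted p under 0.05, and DESeq2 called 125. In lactation against pregnancy 17 were called (11.6%, beside 3.85%), 13 higher and 4 lower. After weaning against pregnancy 8 were called (5.44%, beside 0.718%), all higher, and after weaning against lactation 4 were (2.72%, beside 0.923%), 3 higher and 1 lower. The lists were chosen with earlier results of these data known, so these shares are not a test of the pathway. The comparisons with pregnancy share the pregnant libraries, so that their calls are not separate evidence. Of 49 gene calls in all, 18 were kept in each of the 12 fits without 1 library. When only the 6 libraries compared were fitted, all 8 calls in lactation against virgin were lost, as were 10 of the 17 in lactation against pregnancy and all 4 after weaning against lactation (adjusted p up to 0.298). The 20 calls in the comparisons without lactation were kept in that fit.

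The list of 35 genes induced by TGF-beta held the most calls. Ski, described above, is also in this list and is included in its counts and medians. In pregnancy against virgin 1 rose, 7 fell and 27 did not pass (1.32% of all genes were called), with a median log2 difference of -1.07, beside 0.03 over all genes. Tgfbi, named for its induction by TGF-beta and not in the list, was higher in pregnancy, while 7 of the 8 called genes of the list were lower. Whether TGF-beta induces each gene of the list in these macrophages, Id2 and Id3 among them, was not tested. Cdkn1a, a cell cycle inhibitor, had 130 ± 35.7 CPM in pregnancy and 490.5 ± 122 CPM in virgins (log2 fold change -1.92, edgeR adjusted p = 0.00702). The inhibitors of basic helix-loop-helix factors Id2 and Id3 fell by 1.58 and 2.91 on the log2 scale (adjusted p = 0.00990 and 0.0123). Gadd45b, a stress-response gene, had 127 ± 23.8 CPM in pregnancy and 455 ± 82.6 CPM in virgins (-1.84, adjusted p = 0.00681). Skil, the relative of Ski and a SMAD repressor, fell by 1.56 (adjusted p = 0.0201), and the AP-1 family genes Junb and Atf3 fell by 1.42 and 1.31 (0.0382 and 0.0354). Bhlhe40, a transcriptional repressor, rose to 237 ± 20.7 CPM in pregnancy, against 66.7 ± 12.6 CPM in virgins (1.83, adjusted p = 0.00530).

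The calls of Cdkn1a, Id2, Gadd45b and Bhlhe40 were kept without any 1 library. That of Id3 was lost without pregnant replicate 1 or 3 (adjusted p up to 0.0709), and that of Skil without virgin replicate 2 or any pregnant library (up to 0.104). Those of Junb and Atf3 were each lost in 9 of 12 fits, with all but virgin replicate 1 and lactating replicates 1 and 3 needed (up to 0.195 and 0.186). Immediate early genes, which respond to handling and dissociation of tissue, were read beside this list. The sum of 17 of them, none in the pathway lists, was 3632 to 4978 CPM in pregnant and 10375 to 17569 CPM in virgin libraries. Of the 17, 9 were called lower (1.32% of all genes were called): Btg2, Fos, Klf6, Nr4a1, Dusp1, Egr1, Zfp36, Ppp1r15a and Ier2. These 17 were chosen after values were seen, so their counts are not a test. Their part in the lower pathway genes was not tested.

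Against pregnancy, 6 of the 35 genes of this list rose in lactation and 2 fell (3.85% of all genes were called). The median was 0.69, beside -0.14 over all genes. After weaning 5 rose and none fell (0.718% of all genes were called), with a median of 0.99 beside 0.01. Cdkn1a had 678, 641 and 460.1 CPM in lactation (2.19, edgeR adjusted p = 0.000991) and 407 ± 38.6 CPM after weaning (1.65, 0.0184), against 130 ± 35.7 CPM in pregnancy. Gadd45b likewise had 685, 809 and 502 CPM in lactation (2.39, 0.000295) and 406 ± 23.5 CPM after weaning (1.68, 0.0122), against 127 ± 23.8 CPM in pregnancy. Id2 (1.15 and 1.42) and Id3 (1.88 and 3.13) were called in both, with 765, 772 and 588 CPM of Id2 and 26.9, 18.8 and 30.4 CPM of Id3 in lactation, and Junb was called after weaning (1.53, adjusted p = 0.0363). The lactation calls of Cdkn1a and Gadd45b were kept in all 12 fits, and the other calls named here were lost in 4 to 9 of them, with adjusted p up to 0.221. The lactation calls of Id2 and Id3 were also lost in the fit to 6 libraries (0.107 and 0.154). The immediate early genes summed to 8107 to 10431 CPM in lactating and 13053 to 14456 CPM in post-weaning libraries. Of the 17, 7 and 8 were called higher than in pregnancy (3.85% and 0.718% of all genes were called).

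Hes1 and Jag1 belong to Notch signalling as well as to this list. Hes1, a repressor, had 11.8, 5.48 and 5.62 CPM in lactation, against 77.2 ± 8.63 CPM in virgins (log2 fold change -3.34, edgeR adjusted p = 0.00410) and 38.1 ± 11.7 CPM in pregnancy (-2.33, 0.00913). After weaning it had 73.3 ± 29.2 CPM, higher than in lactation (3.27, 0.00572), and all 3 calls were kept in every fit without 1 library. The fit to only the 6 libraries compared lost all 3 (adjusted p = 0.146, 0.103 and 0.121), and limma-voom lost that against pregnancy (0.0907). Jag1, a Notch ligand, had 18.5, 43.9 and 64.8 CPM in lactating and 9.23, 8.37 and 7.04 CPM in pregnant libraries (2.37, adjusted p = 0.0279), a call lost without any pregnant library or lactating replicate 2 or 3 (up to 0.130).

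Klf11, a zinc finger repressor, had 1 count in the 3 lactating libraries together, against 498 in the virgin, 466 in the pregnant and 381 in the post-weaning libraries. The pooled level was 322 times lower in lactation than in virgins (95% interval 57.5 to 12740, counting error only) and 252 times lower than in pregnancy (45 to 9976). Against lactation, the post-weaning level was 267 times higher (47.7 to 10580). The 1 count was in lactating replicate 3. Without that library the lactating level was at least 53.3-fold lower than in virgins, at least 41.7-fold lower than in pregnancy and at least 44.2-fold lower than after weaning, with a floor of 3 counts over the stage. The edgeR adjusted p was 0.00674, 0.00521 and 0.0126 with all 12 libraries, and the third call was lost without post-weaning replicate 2 or 3 (up to 0.0549). The fit to only the 6 libraries compared lost all 3 calls (adjusted p = 0.185, 0.0841 and 0.146). Bhlhe40 had 286, 391 and 283 CPM in lactating libraries, also above virgins (2.26, adjusted p = 0.00110), a call lost in the fit to 6 libraries (0.146). Sparc, a matrix gene, had 10.9, 24.3 and 389 CPM in lactating and 6.56, 3.56 and 6.96 CPM in pregnant libraries. Its call (4.63, adjusted p = 0.0469) was lost in 10 of 12 fits, and the log2 fold change was 1.56 without lactating replicate 3.

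**Figure D5:**
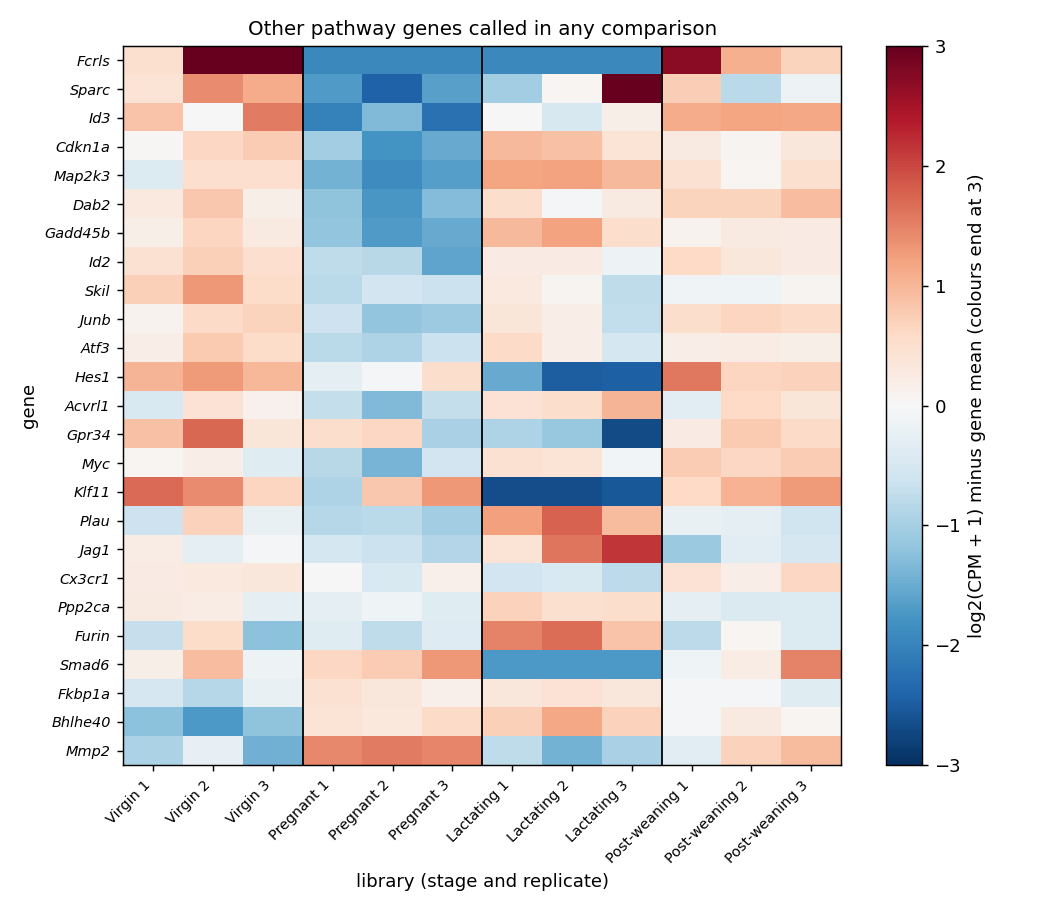
The 25 other pathway genes called in at least 1 comparison (rows), in the 12 libraries (columns), as log2(CPM + 1) minus the gene's mean over the libraries, with colours ending at 3. Cdkn1a, Gadd45b, Id2, Id3, Dab2 and Map2k3 are blue in the 3 pregnant libraries, where Mmp2 is red, and Hes1, Klf11 and Smad6 are blue in the 3 lactating libraries.

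Of 18 tested genes for ligands, latency and activation, 1 was called in pregnancy against virgin (1.32% of all genes) and 3 in lactation against pregnancy (3.85% of all genes). The 3 genes were proteases. Mmp2, a gelatinase that can release latent TGF-beta, had 233, 255 and 238 CPM in pregnant libraries, against 43.8, 72.0 and 30.9 CPM in virgin libraries. It rose in pregnancy (log2 fold change 2.31, edgeR adjusted p = 0.0152), and the lactating libraries, at 50.4, 31.4 and 43.4 CPM, were lower than the pregnant ones (-2.53, adjusted p = 0.00432). The call against virgin was lost without any pregnant library or virgin replicate 1 or 3 (up to 0.0634), and that in lactation was kept throughout. Fibroblasts also express Mmp2. Their markers summed to 21.0 to 31.1 CPM in pregnant and 33.1 to 407 CPM in virgin libraries, and their part in the Mmp2 result was not tested. Plau, the urokinase that activates plasmin, had 80.7, 116 and 66.4 CPM in lactation and 17.6 ± 1.70 CPM in pregnancy (2.32, adjusted p = 0.00650), also kept throughout. Furin, which cleaves the TGF-beta precursor, had 118, 135 and 75.6 CPM in lactation and 29.3 ± 4.49 CPM in pregnancy (1.90, adjusted p = 0.0427), a call lost in 9 of 12 fits (up to 0.189). The other 15 did not pass in any pairwise comparison.

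Of 11 tested co-receptors and related receptors, 1 was called in lactation against pregnancy, where 3.85% of all genes were, and none in the other 5 comparisons. Acvrl1, a type I receptor of the family, had 89.8, 95.4 and 134 CPM in lactating and 40.1, 25.9 and 39.8 CPM in pregnant libraries. The log2 fold change was 1.59 (edgeR adjusted p = 0.0212), a call lost without any pregnant library (up to 0.116) and in the fit to 6 libraries (0.0655). Acvrl1 is known from endothelium, whose markers summed to 3.99 to 396 CPM in lactating libraries, with the highest sum in replicate 3. They summed to 3.31 to 13.2 CPM in pregnant libraries, and their part in this result was not tested.

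Of 15 other SMADs and adaptors, 1 was called in pregnancy against virgin (1.32% of all genes), 2 in lactation against virgin (1.94%), 2 in lactation against pregnancy (3.85%) and 1 after weaning against pregnancy (0.718%). These calls fell on 3 genes. Dab2, an endocytic adaptor that links receptors to SMADs, had 104, 70.4 and 96.6 CPM in pregnant libraries, against 293, 424 and 271 CPM in virgin libraries. It fell by 1.87 on the log2 scale in pregnancy (edgeR adjusted p = 0.00681). Against pregnancy it was higher in lactation, at 346, 231 and 289 CPM (1.68, adjusted p = 0.00318), and after weaning, at 408 ± 43.4 CPM (2.18, adjusted p = 0.00620). The first 2 of these calls were kept in every fit, and the third was lost without pregnant replicate 2 (0.0579). Smad6, the inhibitory SMAD of BMP signalling, had 0 counts in all 3 lactating libraries, against 118 counts in virgin and 250 in pregnant libraries. Its pooled level was at least 25.4-fold lower than in virgins and at least 45.1-fold lower than in pregnancy, with a floor of 3 counts over the stage (adjusted p = 0.0453 and 0.0211). The first call was lost in all 12 fits without 1 library (up to 0.0950), and the second without any pregnant library (up to 0.0765). Fkbp1a, which holds the type I receptor inactive, had 207, 219 and 208 CPM in lactation and 114 ± 24.6 CPM in virgins (0.88, adjusted p = 0.0471), also lost in all 12 fits (up to 0.147).

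Of 25 tested SMAD co-factors and repressors, Skil was called in pregnancy against virgin (1.32% of all genes) and Myc in lactation and after weaning against pregnancy (3.85% and 0.718% of all genes). Myc, a growth gene that TGF-beta is known to repress in epithelium, had 35.7, 24 and 42.6 CPM in pregnant libraries. It had 88.7, 86.3 and 60.6 CPM in lactation (log2 fold change 1.20, edgeR adjusted p = 0.0328) and 106 ± 5.68 CPM after weaning (1.64, adjusted p = 0.0231), both against pregnancy. These calls were lost in 8 and 6 of 12 fits (up to 0.158 and 0.143).

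TGF-beta is known to maintain a set of genes in mouse microglia, and 23 of 25 listed were tested. Of these, 1 was called in pregnancy against virgin (1.32% of all genes), 3 in lactation against virgin (1.94%), 1 in lactation against pregnancy (3.85%) and 1 after weaning against lactation (0.923%). Fcrls, a receptor of that set, had 4.36, 47.4 and 31.2 CPM in virgin libraries and 0 counts in all pregnant and all lactating libraries. Its pooled level was at least 424-fold lower in pregnancy and at least 229-fold lower in lactation than in virgins (edgeR adjusted p = 0.0318 in both). After weaning it had 24, 7.04 and 5.10 CPM. Gpr34, a lysophospholipid receptor, had 147, 127 and 42.6 CPM in lactating and 514, 929 and 362 CPM in virgin libraries (-2.51, adjusted p = 0.0382). Cx3cr1, the fractalkine receptor, had 211, 226 and 181 CPM in lactation, against 384 ± 10.7 CPM in virgins (-0.90, adjusted p = 0.0466), and 419.8 ± 61.3 CPM after weaning, higher than in lactation (1.03, 0.0396). The Fcrls calls were lost in 8 and 6 of 12 fits (up to 0.124 and 0.0831), that of Gpr34 in 8 (up to 0.114) and those of Cx3cr1 in 11 and 9 (up to 0.119 and 0.165). Apart from these and Sparc, no gene of the set was called, and its median log2 difference was -0.37 in pregnancy and -0.07 in lactation against virgin, beside 0.03 and -0.06 over all genes.

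Of 29 genes of TGF-beta signalling outside the SMADs, Map2k3 and Ppp2ca were called. There was 1 call in pregnancy against virgin (1.32% of all genes), 2 in lactation against pregnancy (3.85%), 1 after weaning against pregnancy (0.718%) and 1 after weaning against lactation (0.923%). Map2k3, a kinase that activates p38, had 107, 77.3 and 90.0 CPM in pregnant libraries, against 215, 409 and 408 CPM in virgin libraries (log2 fold change -1.91, edgeR adjusted p = 0.00702). It had 651, 667 and 565 CPM in lactating libraries (2.78 against pregnancy, adjusted p = 0.000295) and 365 ± 56.1 CPM after weaning (2.0 against pregnancy, adjusted p = 0.0103). The first 2 calls were kept in every fit, and the third was lost without pregnant replicate 2 or 3 or post-weaning replicate 3 (up to 0.0823). Ppp2ca, a phosphatase subunit, had 1079, 937 and 964 CPM in lactation, against 564 ± 50.0 CPM in pregnancy (0.82, adjusted p = 0.0306). After weaning it had 522 ± 33.5 CPM, lower than in lactation (-0.93, adjusted p = 0.0406), and its calls were lost in 9 and 10 of 12 fits (up to 0.127 and 0.201).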

How the data were processed

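Per the submitters' processing notes, reads were counted per gene with featureCounts on mm10. The authors deposited raw counts, whole numbers that are not normalized, with a gene length. The sources used here name no aligner, version or strand setting, so reads of antisense genes cannot be told apart; no exonic base of the 9 genes is shared with another GENCODE M21 gene. Per the labels' protocols, cDNA was made with SMART-Seq v4 from 2000 sorted cells and sequenced together in 1 run. This kit has no molecular identifiers, so floors and intervals on counts cover counting error only.

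RefSeq symbols (GRCm38.p6) matched 25275 of 27179 Entrez identifiers (93%), and the rest held at most 0.825% of a library's counts. The stage in the labels set the groups. No 2 libraries of a stage were identical or within sampling noise. P-values measure the spread between these libraries, which the series describes as biological replicates. Genes were filtered with filterByExpr, scaled by TMM and fitted with edgeR 4.0.16 (R 4.3.3; robust quasi-likelihood, 1 mean per stage, 12 libraries). Genes with a Benjamini-Hochberg adjusted p under 0.05 over 12672 genes were called. The common biological coefficient of variation was 0.856. The procedure was tested on simulated data.

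The 9 genes, the lists and the tests were chosen with earlier results of these data known. All 9 genes are named, with fold changes for any that passed, and of the lists every gene called in any test is named. For each of the 9 genes, the 3 closest patterns among genes with a mean log2 CPM of at least 3 (prior count 2) are named. Alternatives were DESeq2 1.42.0, limma-voom 3.58.1 with quality weights, RLE factors, TMM without mitochondrial, ribosomal, epithelial and milk genes, no low-count filter, 5 CPM in 3 libraries, a replicate block, the 6 libraries compared, and leaving out each library. Their use on the list genes and on counts over all genes was added after seeing the data, as was the immediate early list.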

Additional observations from a re-analysis of the deposited data

How the results depend on the processing

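The Tgfbi difference between pregnancy and virgin kept its direction under every alternative run, with log2 fold changes from 1.04 to 1.31. Its adjusted p stayed under 0.05 with DESeq2 (3.55e-05), limma-voom (0.00752), RLE factors (0.0287), TMM without mitochondrial, ribosomal, epithelial and milk genes (0.0318), no low-count filter (0.0297), the 5 CPM filter (0.0300) and the 6 libraries alone (0.0272). The labels do not say whether libraries with the same replicate number were handled together. The 18 correlations between the deviations of same-numbered libraries ran from -0.0683 to 0.0726, which cannot settle it. Every library correlated best with its own number in 1 of the 6 comparisons, post-weaning against pregnancy. With a replicate block the adjusted p was 0.0779 and the log2 fold change 1.19, which left 0 of the 9 genes called in pregnancy against virgin, and 0 in the test of any stage (Tgfbi, adjusted p = 0.0949). Of the 49 calls of list genes, 31 remained under the block, 27 in the fit to the 6 libraries compared, 41 with limma-voom and 42 without a low-count filter. Under the block, genes called over the whole table fell to 100 in pregnancy against virgin, against 167 without it. Leaving out 1 library gave 0 to 1 of the 9 genes called in pregnancy against virgin, 0 to 1 in post-weaning against pregnancy and 0 to 1 in the test of any stage.

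DESeq2 called 1 of the 9 in lactation against virgin (Tgfbr1), 1 in lactation against pregnancy (Tgfbi, adjusted p = 0.0479), 1 in post-weaning against pregnancy (Tgfbi) and 2 in the test of any stage (Tgfbi at 3.71e-05 and Tgfbr1 at 0.0483). In post-weaning against pregnancy, limma-voom and the fit to 6 libraries also called 1, Tgfbi, at 0.00449 and 0.0376. No alternative reversed a direction among the calls, and none moved the median of all genes by over 0.1 on the log2 scale. The cause of these changes was not tested.

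Counts over all genes depended on the setting. Across settings they ran from 40 to 656 for pregnancy against virgin (167 as reported), 0 to 1173 for lactation against virgin (246), 0 to 125 for post-weaning against virgin (0), 147 to 1465 for lactation against pregnancy (488), 1 to 899 for post-weaning against pregnancy (91), 3 to 919 for post-weaning against lactation (117) and 171 to 1462 for any stage (424). The standard errors of the log2 differences were highest for Smad7 (0.66) and Smad2 (0.64 to 0.65), although Smad2 had at least 224 counts in every library.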
